A study of Homo sapiens with 6 samples.

Results

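The genes described here encode the factors that start protein synthesis on an mRNA and lengthen the protein chain, in the human hepatocellular carcinoma cell line Huh7 with and without silencing of SETD5, a gene for a SET-domain protein of chromatin. They were chosen by symbol: EIF or EEF followed by a digit, other than EIF2AK2, and an average level of 1 CPM or more across the 6 libraries, where CPM are reads scaled to a common library total. Of 14200 genes in the table, 59 had such a symbol and 58 reached the level. EIF1B-AS1 (mean 0.613 CPM) did not, and EIF3J-AS1, an antisense transcript, is counted apart, which left 57 factor genes and their regulators. RNA sequencing of poly(A)-selected mRNA was done on 3 libraries of control Huh7 cells and 3 of Huh7 cells transfected with an siRNA against SETD5. What was given to the control cells, how long after transfection the RNA was taken, and whether the siRNA was a single one or a pool are not stated in the labels. Separate cultures are not mentioned for the replicates either, so the spread behind each p-value is that between libraries and may be technical. The fit drew that spread in part from other genes of similar level, through a mean-variance trend, and not from the gene alone.

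Initiation begins when eIF2, a complex of 3 subunits, carries the initiator tRNA to the small ribosomal subunit. The guanine nucleotide exchange factor eIF2B recharges eIF2, and kinases that phosphorylate the eIF2 alpha subunit under stress block that step. The scaffold eIF3 holds the small subunit, while the eIF4 factors bind the mRNA cap, unwind the leader and recruit the ribosome, a step that the 4E-binding proteins restrain downstream of the kinase mTOR. The eEF1 complex then delivers aminoacyl-tRNA to the ribosome, and eEF2 moves the ribosome along the message. In proliferating cells, hepatoma cells among them, these factors are among the more abundant messages.

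The files gave back 14038447 to 17095417 reads per library, and 3 reads, the limit that a count of 0 allows, corresponded to 0.176 to 0.214 CPM. SETD5, the siRNA target, was at 212, 210 and 202 CPM in control libraries and at 136, 140 and 138 CPM in those with the siRNA. All 3 knockdown values lay below all 3 controls, with a log2 change of -0.59 (SE 0.032, limma adjusted p = 1.15e-17). Huh7 was checked against hepatocyte markers, all 8 of which were in the table, with a summed level of 39021 to 39777 CPM in the controls and 37657 to 38125 CPM after knockdown. That sum is mostly AFP and ALB, and single markers moved more: FGA went from 1524 to 1545 CPM in the controls to 2658 to 2789 CPM, TTR from 401 to 432 CPM to 250 to 269 CPM, and APOB from 4014 to 4228 CPM to 2471 to 3085 CPM. Of markers of other cells, the blood list had 2 of 4 genes in the table (sum 4.67 to 4.80 CPM in the controls, 3.31 to 3.38 CPM after knockdown) and the endothelial list 2 of 3 (0.786 to 1.35 and 0.614 to 0.938 CPM). For fibroblasts and stellate cells 3 of 4 were in it (42.6 to 49.9 and 33.8 to 36.4 CPM) and for bile duct 2 of 3 (135 to 155 and 129 to 133 CPM). These sums too hide opposite movements. COL3A1 rose from 2.02 to 2.22 CPM to 3.59 to 4.69 CPM, while COL1A1 and PDGFRB fell. EPCAM rose from 29.7 to 30.2 CPM to 33.5 to 35.3 CPM, while KRT19 fell. In the blood list CD14 fell from 3.43 to 3.75 CPM to 1.60 to 2.06 CPM, and PTPRC overlapped between groups. The part of these markers in the results below was not tested. In such bulk libraries fewer cells of a type and less RNA per cell cannot be told apart.

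Changes in the translation factors after SETD5 knockdown were small and went both ways. Limma, fitted across the 12865 genes that averaged 1 CPM or more, called 24 of the 57 at an adjusted p under 0.05 (42.1%), 14 of them higher and 10 lower. Over all tested genes the same rule called 52.1%, with 25.7% higher and 26.5% lower, beside 24.6% higher and 17.5% lower among the 57. Under median centring the split was 17 higher and 7 lower, while that of all tested genes moved to 27.1% higher and 24.9% lower. Control and knockdown values did not overlap for 34 members (59.6%), against 57.3% of all tested genes. The share of members called was thus below that of all tested genes, and the share without overlap near it.

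The sizes of the changes are given as a description without a test. The median absolute log2 change was 0.079 in the 57 members and 0.155 in all tested genes. A change of at least 1.2-fold on the log2(CPM + 1) scale was seen for 3 members (5.26%), EIF3I, EEF2KMT and the uncalled EEF1A2, against 3726 of the 12865 tested genes. None of the 57 changed 1.5-fold, which 853 tested genes did. Members are abundant, with a median of 136 CPM against 29.4 CPM, so the comparison was repeated above 100 CPM. There 20 of 37 members passed (54.1%) with a median absolute log2 change of 0.070, against 68.6% of 2210 genes with a median of 0.126.

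**Figure D1:**
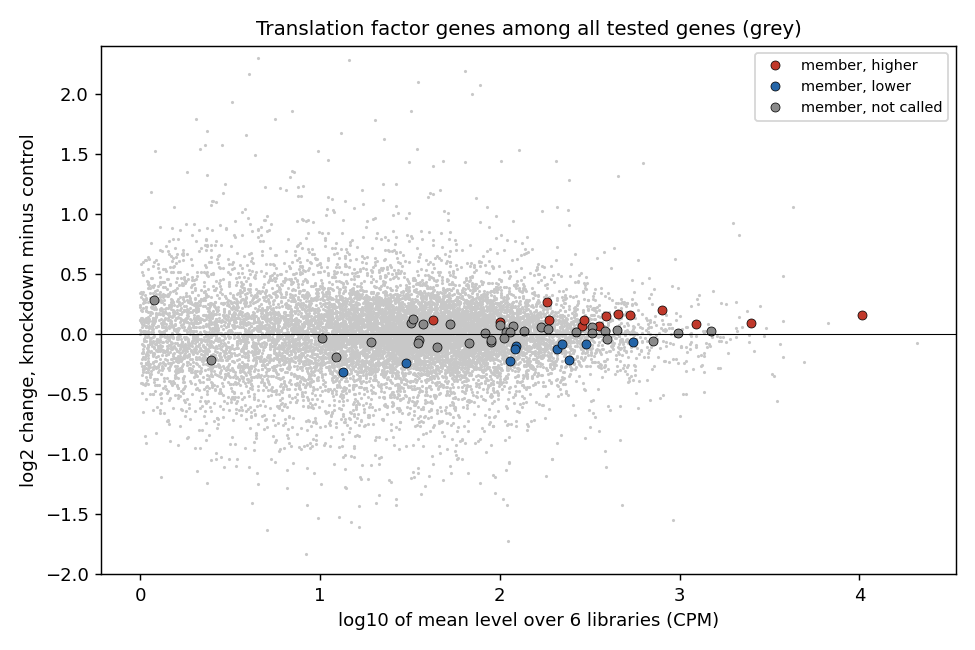
Log2 change after SETD5 knockdown (vertical axis, knockdown minus control) against the log10 of the mean level over 6 libraries in CPM (horizontal axis), with every tested gene as a grey dot and the 57 factor genes as larger dots coloured by their call. Most members sit close to 0. The lowest and the highest estimates are at low levels, EEF2KMT (-0.32 at 13.5 CPM) and EEF1A2 (0.28 at 1.19 CPM). The member at the far right is EEF1A1 at a mean of 10320 CPM.

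Added up, messages of the 57 genes made 25788, 25968 and 25622 CPM in the controls and 27121, 27762 and 27360 CPM after knockdown. The sums did not overlap, and their share of all CPM went from 2.57 to 2.75%. Most of that came from 1 gene, EEF1A1, at 9756 ± 81.8 and 10883 ± 271 CPM (SD, n = 3 per group). The elongation group summed to 14600 ± 49.6 and 15896 ± 297 CPM (SD, n = 3 per group), 1.09 times the control. Without EEF1A1 its other 8 genes summed to 4844 ± 100 and 5012 ± 32.5 CPM (SD, n = 3 per group), and the remaining 56 members to 1.03 times the control. The sums of the other groups were 1.02 (eIF2), 1.04 (eIF3), 1.04 (eIF4) and 1.00 times the control (the remaining initiation factors).

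**Figure D2:**
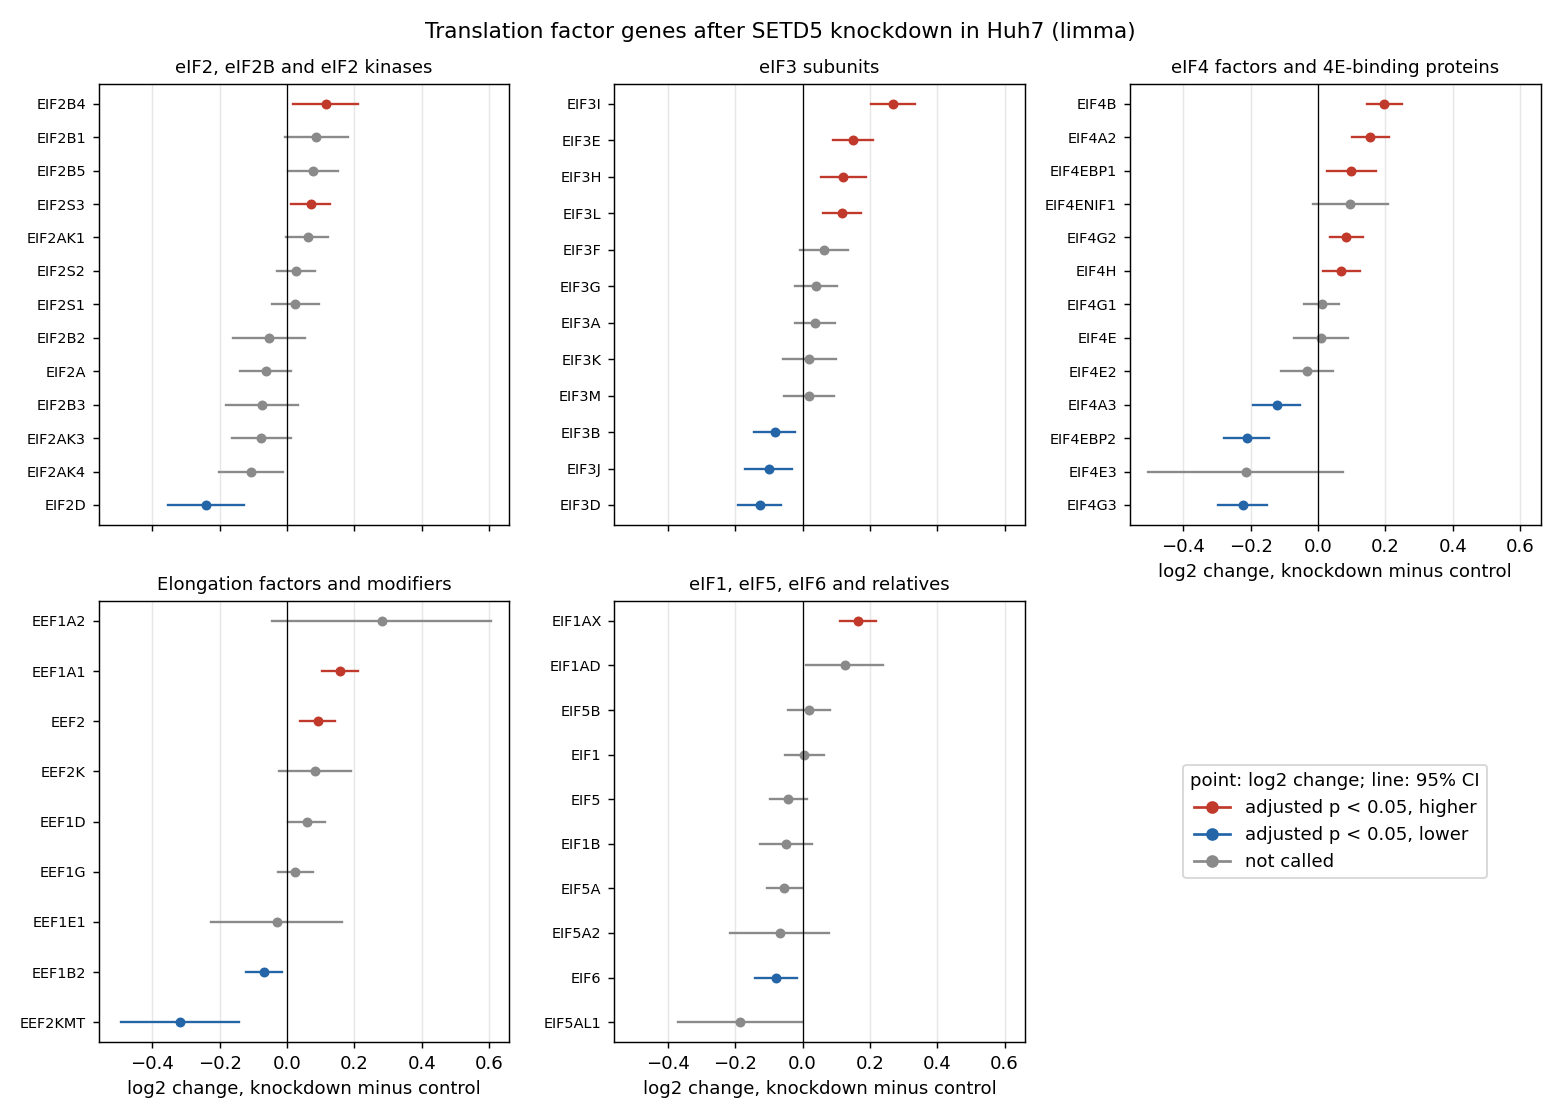
Log2 change (horizontal axis, knockdown minus control, limma) of each of the 57 factor genes by group, with points for the estimate and lines for its 95% confidence interval. In each of the 5 panels higher genes (red) and lower genes (blue) stand side by side, and the estimates run from -0.32 for EEF2KMT to 0.28 for EEF1A2.

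Many messages of the translation machinery start with a run of pyrimidines, the terminal oligopyrimidine tract, through which mTOR and LARP1 control their translation. Transcript starts from RefSeq (GRCh38.p14) were found for 46 of the 57 members, and 12 of them (26.1%) had, at 1 or more of their listed starts, a C followed by at least 4 further C or T. Of 9611 tested genes with a start in the same table, 693 (7.21%) had such a tract, searched on the strand of the gene only. The windows below are those of the called members with the tract, and some of these calls ended under alternatives given further below. Each runs 5′ to 3′ from 15 bases before the annotated start to 15 bases from it, with the tract in capitals. The first 5 are from genes that were higher after knockdown and the next 3 from genes that were lower.
EEF1A1, chr6:73521018-73521047, minus strand: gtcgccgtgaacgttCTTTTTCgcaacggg
EEF2, chr19:3985449-3985478, minus strand: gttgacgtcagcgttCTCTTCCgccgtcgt
EIF4B, chr12:53006441-53006470, plus strand: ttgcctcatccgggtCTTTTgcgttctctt
EIF4A2, chr3:186783562-186783591, plus strand: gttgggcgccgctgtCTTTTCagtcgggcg
EIF2S3, chrX:24054941-24054970, plus strand: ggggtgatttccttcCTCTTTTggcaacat
EIF3D, chr22:36529152-36529181, minus strand: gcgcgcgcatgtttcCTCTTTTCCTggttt
EEF1B2, chr2:206159880-206159909, plus strand: ccggtctcttcgggtCCTTTTTCCTCTCTT
EIF2D, chr1:206612451-206612480, minus strand: ggtttccagccgggcCCTTTTCgcggccgg
EIF3I and EIF1AX, both higher after knockdown, are shown beside them as starts without the tract. Lower members without the tract are not shown.
EIF3I, chr1:32222392-32222421, plus strand: accttttccggtcttactcacgttgcggcc
EIF1AX, chrX:20141824-20141853, minus strand: gcaaagagtcgcggcgccatttgctgccgc

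Members with the tract did not all go one way. Of the 12, the 5 named first rose, EIF3D, EEF1B2 and EIF2D fell, and EIF2A, EIF3F, EIF3K and EIF3M did not pass. Their median log2 change was 0.04. Of the 34 matched members without a tract, 5 rose, 6 fell and 23 did not pass, with a median of -0.03. Among all tested genes with the tract, 192 rose, 194 fell and 307 did not pass. These starts are annotated, not measured in Huh7, and EEF1B2 has another listed start without the tract. No start was found for EIF3E, EIF3H, EIF3L and EIF4EBP1, which rose, or for EEF2KMT, which fell, so these were not searched.

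eIF3 is the largest initiation factor. Of its 12 genes analysed here, 4 rose (EIF3I, EIF3E, EIF3H and EIF3L), 3 fell (EIF3D, EIF3B and EIF3J) and 5 did not pass. EIF3C, a further subunit, was not analysed here. The share called, 58.3%, lay between those of all tested genes (52.1%) and of tested genes above 100 CPM (68.6%), as all 12 are above that level. EIF3I, a small WD-repeat subunit that sits with EIF3B and EIF3G, was at 168, 169 and 164 CPM in the controls and at 196, 210 and 198 CPM after knockdown. The groups were far apart, and EIF3I had the largest change among the called members that were above 100 CPM, at 1.21 times the control (log2 change 0.27, SE 0.032, limma adjusted p = 7.53e-09). The exons of EIF3I overlap those of TMEM234 on the opposite strand over 6.20% of their length, and TMEM234 was at 3.36 ± 0.259 and 4.41 ± 0.0272 CPM (SD, n = 3 per group). The library kit keeps strand, but whether the counting used it is not given in the sources used here.

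EIF3E, EIF3H and EIF3L are among the subunits of the part of eIF3 that carries PCI and MPN domains. They are the called ones of that part, and the others did not pass. EIF3E was at 359, 384 and 359 CPM in the controls and 399, 414 and 408 CPM after knockdown, with every knockdown library above every control (log2 change 0.15, limma adjusted p = 5.03e-05). EIF3L went from 282, 286 and 276 CPM to 305, 309 and 302 CPM, again without overlap (log2 change 0.12, limma adjusted p = 6.86e-04). Another annotated gene on the same strand covers 41.1% of the exons of EIF3L, so part of its reads could not be told apart from that gene's. EIF3H rose from 176, 186 and 177 CPM to 201, 199 and 188 CPM, where the lowest knockdown value was just above the highest control. Its limma adjusted p was 0.00211, but a fit with no mean-variance trend gave 0.0637, which ended the call. EIF3F, EIF3K and EIF3M, from the same part of the complex, did not pass, with log2 changes of 0.065, 0.020 and 0.018.

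EIF3D, a cap-binding subunit at the edge of the complex, went the other way. It was at 217, 227 and 212 CPM in the controls and at 197, 205 and 197 CPM after knockdown, all below the controls (log2 change -0.13, SE 0.032, limma adjusted p = 8.93e-04). EIF3J, loosely bound to eIF3 and known to help the ribosome let go of mRNA, fell from 128, 128 and 126 CPM to 120, 122 and 114 CPM. The groups of EIF3J did not overlap (limma adjusted p = 0.0145), but the call ended without knockdown replicate 3, its lowest library (adjusted p = 0.122), and in the fit without the trend (0.0829). EIF3B, the scaffold for EIF3I and EIF3G, ran from 297 to 323 CPM in the controls and from 289 to 294 CPM after knockdown (limma adjusted p = 0.0211). The EIF3B call ended without control replicate 2, its highest library (adjusted p = 0.152), without knockdown replicate 2 (0.0590), under median centring (0.0502) and without the trend (0.159). EIF3A, the largest subunit, was at 433, 450 and 438 CPM and at 459, 468 and 429 CPM, with knockdown replicate 3 below all controls, and did not pass (limma adjusted p = 0.304, and 0.0450 without that replicate). EIF3G was at 183 ± 2.22 and 188 ± 2.58 CPM (SD, n = 3 per group) and did not pass. EIF3J-AS1, the antisense transcript, was at 7.33 ± 0.307 and 7.12 ± 0.383 CPM (SD, n = 3 per group) and was not called.

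**Figure D3:**
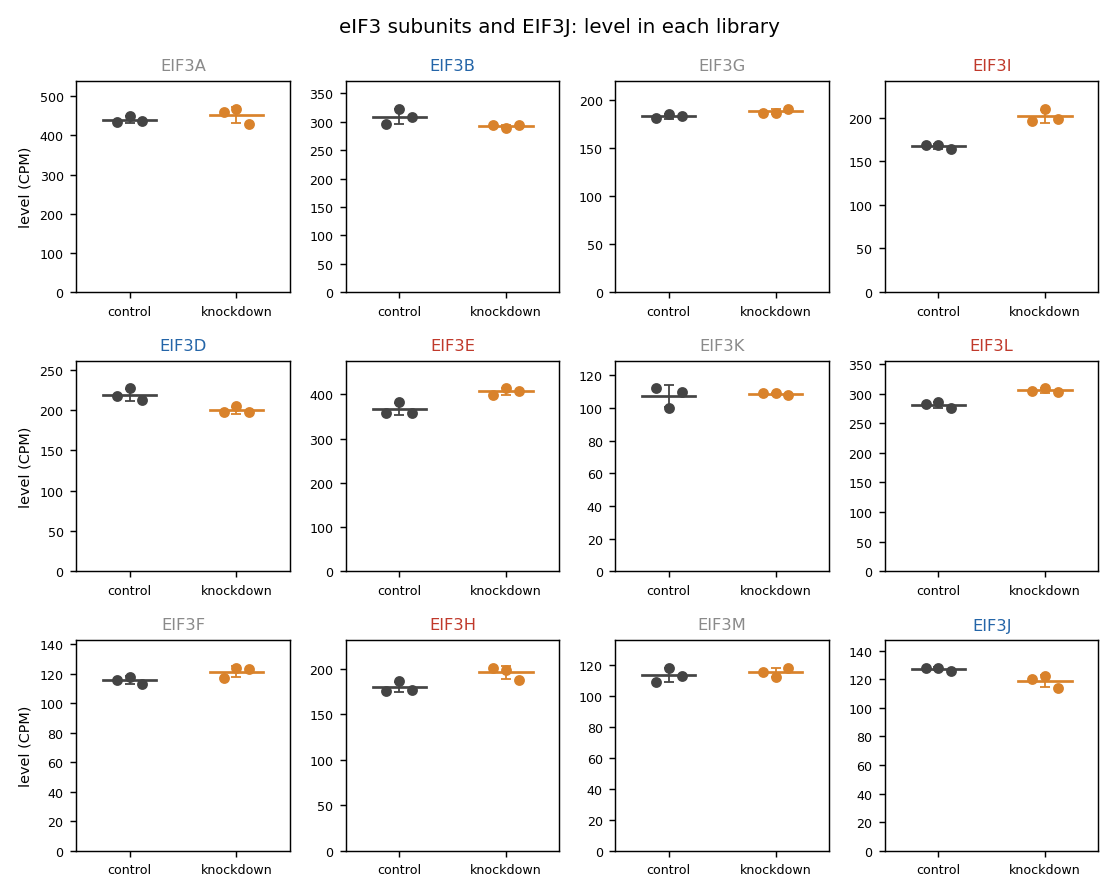
Level of each eIF3 gene analysed here in CPM (vertical axes, each from 0) in the 3 control and 3 knockdown libraries. There is a dot per library, a line at the mean and bars of 1 SD. Names are red where higher, blue where lower and grey where not called. EIF3I stands out with its knockdown dots at 196 to 210 CPM above controls at 164 to 169 CPM, while the other panels show smaller shifts.

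The opposite movements changed the ratios of eIF3 messages within a library. These pairs, and the pairs of eIF4 genes given below, were picked with the calls known and are a description only. The ratio of EIF3E to EIF3D was 1.66, 1.69 and 1.69 in the control libraries, and stood at 2.02, 2.02 and 2.07 in the knockdown libraries. The ratio of EIF3I to EIF3B was 0.566, 0.522 and 0.531 and then 0.668, 0.726 and 0.673. Neither ratio overlapped between groups, and a ratio within a library does not depend on a scaling of that library by 1 factor. EIF3I relative to EIF3G, the uncalled partner of the same module, went from 0.911 ± 0.0165 to 1.07 ± 0.0458 (SD, n = 3 per group).

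Of the 13 genes of the eIF4 group, 5 rose and 3 fell, a share called of 61.5% beside 52.1% of all tested genes and 68.6% of those above 100 CPM. All 4 genes of the helicase eIF4A and its cofactors passed, and 3 of them rose. EIF4B, which stimulates the helicase, was at 749, 756 and 732 CPM in the controls and at 849, 861 and 855 CPM after knockdown. The groups lay far apart next to their spread, with the smallest adjusted p of the eIF4 genes (log2 change 0.20, SE 0.025, limma adjusted p = 3.19e-08). EIF4A2, one of the paralogous cap-complex helicases, rose from 493, 519 and 490 CPM to 550, 557 and 566 CPM (log2 change 0.155, limma adjusted p = 1.05e-05). EIF4A3, the paralog that works in the exon junction complex on spliced mRNA, fell from 124, 128 and 131 CPM to 114, 118 and 119 CPM (log2 change -0.12, limma adjusted p = 0.00292). In neither paralog did the groups overlap, and the ratio of EIF4A2 to EIF4A3 went from 3.93 ± 0.158 to 4.76 ± 0.0419 (SD, n = 3 per group). EIF4A1, a further paralog, was not analysed here. In GENCODE 29 EIF4B has 9 pseudogenes and EIF4A2 has 5. How reads shared with these pseudogenes were counted is not given in the sources used here. EIF4H, a small cofactor related to EIF4B, rose from 349 ± 3.70 to 366 ± 4.20 CPM (SD, n = 3 per group, limma adjusted p = 0.0312). That call ended without control replicate 3 (0.110), knockdown replicate 1 (0.0824) or knockdown replicate 2 (0.0822), and without the trend (0.142).

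None of the 3 cap-binding proteins was called. EIF4E, which binds the cap, was at 80.7, 84.5 and 82.5 CPM and at 86.6, 83.8 and 79.1 CPM, with overlapping groups and a 95% confidence interval of the log2 change from -0.07 to 0.09. EIF4E2, a relative that represses translation of bound mRNA, was at 107 ± 5.85 and 104 ± 1.89 CPM (SD, n = 3 per group, interval -0.11 to 0.05). EIF4E3 was at 2.28, 3.55 and 2.43 CPM and at 1.75, 2.52 and 2.39 CPM, too low for a narrow estimate (interval -0.50 to 0.07). Per kb of transcript, its control level was 0.277 ± 0.0698 CPM (SD, n = 3) against 91.9 ± 2.08 CPM per kb for EIF4E and 66.5 ± 3.65 CPM per kb for EIF4E2. A single annotated transcript per gene was used, of 9.95, 0.898 and 1.60 kb in that order, and none was measured in Huh7. Undivided, the control means of EIF4E3 and EIF4E were 2.75 and 82.6 CPM, so part of the gap per kb comes from these lengths.

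The proteins that hold EIF4E away from the ribosome moved in opposite directions. EIF4EBP1, an mTOR target, was at 97.4, 96.5 and 95.2 CPM in the controls and at 102, 106 and 102 CPM after knockdown (log2 change 0.10, limma adjusted p = 0.0199). The EIF4EBP1 call ended without control replicate 3 (0.0675), without knockdown replicate 2 (0.0963) and without the trend (0.0653). Its paralog EIF4EBP2 was at 259, 278 and 247 CPM in the controls and at 225 CPM in each of the 3 knockdown libraries (log2 change -0.21, SE 0.033, limma adjusted p = 1.42e-06). The spread of EIF4EBP2 was wider in the controls, yet its lowest control lay above the knockdown libraries. The ratio of EIF4EBP1 to EIF4EBP2 was 0.376, 0.347 and 0.386 in the control libraries, against 0.453, 0.470 and 0.452 in the knockdown libraries. EIF4ENIF1, which carries EIF4E into the nucleus, was at 30.9 ± 1.51 and 33.1 ± 0.820 CPM (SD, n = 3 per group) and did not pass.

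Of the eIF4G scaffolds, which bridge the cap complex and eIF3, 1 fell, 1 rose and 1 did not pass. EIF4G3 fell from 120, 123 and 127 CPM to 109, 103 and 105 CPM, without overlap (log2 change -0.22, SE 0.036, limma adjusted p = 1.84e-06). EIF4G2, a shorter relative that lacks the EIF4E-binding part, rose from 1182, 1212 and 1186 CPM to 1264, 1278 and 1252 CPM (log2 change 0.08, limma adjusted p = 0.00450, and 0.0884 without the trend). EIF4G1, the main scaffold, was at 961, 985 and 985 CPM and at 994, 997 and 963 CPM, with overlapping groups. It did not pass (limma adjusted p = 0.746), though quantile normalization gave a log2 change of 0.06 with an adjusted p of 0.0251. EIF4G3 relative to EIF4G1 was at 0.126 ± 0.00243 in the controls and 0.107 ± 0.00331 after knockdown (SD, n = 3 per group).

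**Figure D4:**
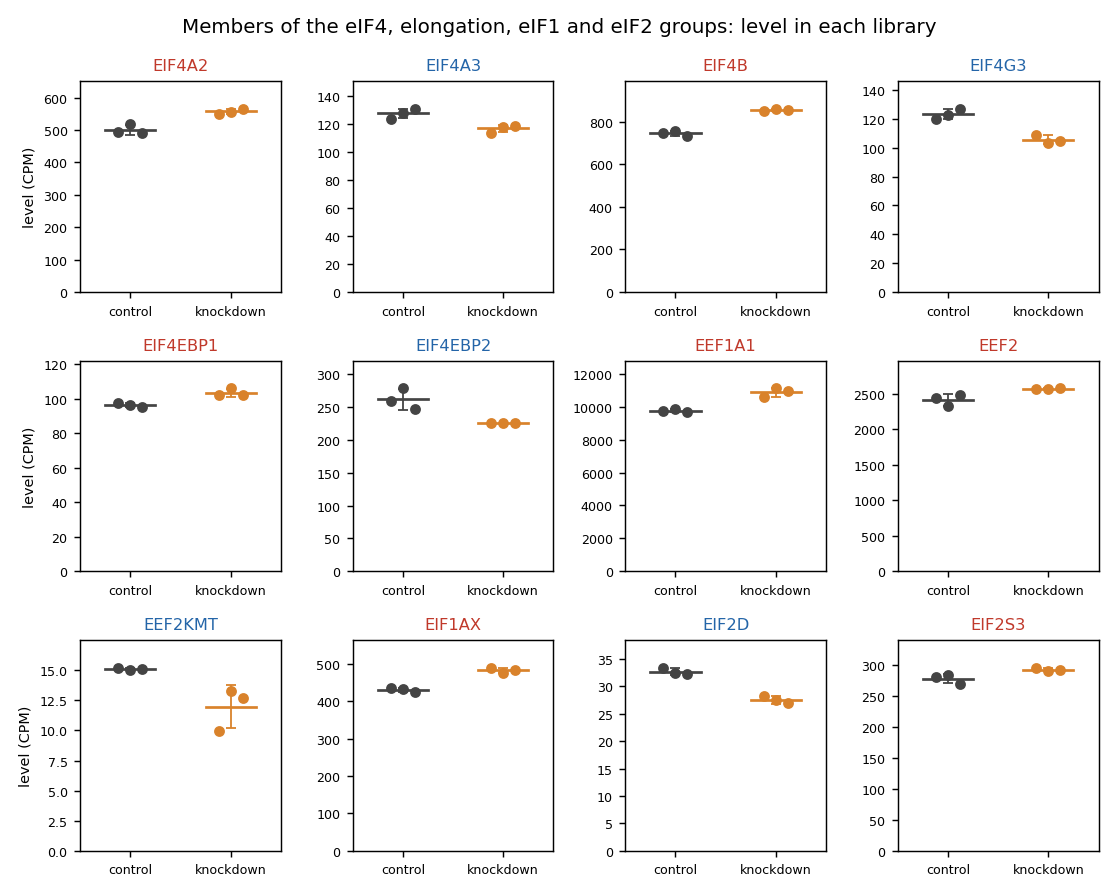
Level in CPM (vertical axes, each from 0) of 12 members of the eIF4, elongation, eIF1 and eIF2 groups in the 3 control and 3 knockdown libraries, with a dot per library, a line at the mean and bars of 1 SD; names are red where higher and blue where lower. The groups do not overlap in any panel, and in EEF2KMT the lowest knockdown dot, at 9.94 CPM, stands apart from the other two.

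In the elongation group 2 of 9 genes rose and 2 fell (44.4% called, beside 52.1% of all tested genes), and the rises were in the 2 most abundant factors. EEF1A1, which brings aminoacyl-tRNA to the ribosome, was at 9754, 9839 and 9675 CPM in the controls and at 10585, 11116 and 10949 CPM after knockdown. Every knockdown library was above every control, by a log2 change of 0.16 (SE 0.027, limma adjusted p = 6.33e-06). EEF1A1 was the gene with rank 2 by level in each of the 6 libraries, so quantile normalization, which gives equal ranks equal values, fixed its change at 0 and says nothing about it. EEF1A1 has 39 pseudogenes in GENCODE 29, and how reads shared with them were counted is not given in the sources used here. Its paralog EEF1A2, the form of muscle and neurons, was at 0.995, 0.975 and 0.929 CPM and at 0.875, 1.78 and 1.61 CPM. Those groups overlapped through knockdown replicate 1, and EEF1A2 did not pass (log2 change 0.28, limma adjusted p = 0.142, and 0.0273 without that replicate). In the controls the level per kb of transcript was 2197 ± 18.4 CPM for EEF1A1 and 0.609 ± 0.0215 CPM for EEF1A2 (SD, n = 3). The annotated transcripts used were of 4.44 and 1.59 kb.

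EEF2, the translocase, rose from 2440, 2326 and 2486 CPM to 2567, 2573 and 2579 CPM. The knockdown libraries were closer together than the controls and all above them (log2 change 0.09, limma adjusted p = 0.00369). The EEF2 call ended under quantile normalization (log2 change 0.02, adjusted p = 0.389) and without the trend (0.104). EEF2KMT, which methylates EEF2 on a lysine, was at 15.2, 15.0 and 15.1 CPM in the controls and at 9.94, 13.3 and 12.7 CPM after knockdown. This was the largest fall among the 57 (log2 change -0.32, SE 0.087, limma adjusted p = 0.00234), but it leaned on knockdown replicate 1, without which the adjusted p was 0.0523. Its exons are overlapped by those of ALG1, on the opposite strand, over 29.3% of their length. ALG1, a mannosyltransferase of the endoplasmic reticulum, was at 40.5, 41.6 and 44.9 CPM and at 30.9, 30.1 and 32.4 CPM (log2 change -0.43, limma adjusted p = 1.84e-08). Reads of EEF2KMT and ALG1 in the shared part could not be told apart without strand, and the part of ALG1 in the EEF2KMT value was not tested. EEF2K, the kinase that switches EEF2 off, was at 36.1 ± 1.16 and 38.3 ± 2.10 CPM (SD, n = 3 per group) and did not pass.

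The other subunits of the eEF1 complex, among them the exchange factors that recharge EEF1A1, did not follow it as a set. EEF1B2 fell from 560, 568 and 557 CPM to 524, 536 and 548 CPM (log2 change -0.07, limma adjusted p = 0.0304). The groups did not overlap, but 7 of 14 alternatives ended the EEF1B2 call, with adjusted p from 0.0180 to 0.209 over all 14. These were median centring (0.0737), quantile normalization (0.209), the fit without the trend (0.172), and leaving out control replicate 1 (0.0651), control replicate 2 (0.0687), control replicate 3 (0.0503) or knockdown replicate 1 (0.163). EEF1G was at 1522, 1453 and 1479 CPM and at 1513, 1541 and 1478 CPM, with overlapping groups. EEF1D was at 319, 317 and 317 CPM and at 326, 336 and 331 CPM, which did not overlap but missed the threshold (log2 change 0.06, limma adjusted p = 0.0759); it passed under median centring (0.0373) and voom (0.0351). A read-through transcript on the same strand covers 99.9% of the exons of EEF1G, and EEF1B2, EEF1D and EEF1G have 8 annotated pseudogenes each, so the split of reads is uncertain. EEF1E1, a protein of the tRNA synthetase complex named with the group, was at 10.5 ± 1.48 and 10.2 ± 0.898 CPM (SD, n = 3 per group) and was not called.

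Of the 13 genes of the eIF2 group, 2 rose and 1 fell (23.1% called, beside 52.1% of all tested genes). EIF2D, which can place tRNA on the ribosome without GTP and acts in recycling, was at 33.4, 32.4 and 32.3 CPM in the controls and at 28.3, 27.5 and 26.9 CPM after knockdown. That was the largest log2 change of the group (log2 change -0.24, SE 0.055, limma adjusted p = 4.38e-04), and it passed in all 14 alternatives. EIF2S3, the gamma subunit that binds the initiator tRNA, was at 281, 285 and 270 CPM and at 296, 291 and 292 CPM (log2 change 0.07, limma adjusted p = 0.0401). The EIF2S3 call ended without control replicate 1 (0.0602), control replicate 3 (0.228), knockdown replicate 1 (0.129) or knockdown replicate 3 (0.0668), and without the trend (0.171). The alpha subunit EIF2S1, the target of the stress kinases, was at 134, 139 and 131 CPM and at 139, 141 and 132 CPM. The beta subunit EIF2S2 was at 380, 386 and 370 CPM and at 396, 383 and 380 CPM. Both overlapped between groups and did not pass, with intervals of the log2 change from -0.05 to 0.10 for EIF2S1 and -0.03 to 0.08 for EIF2S2. EIF2A, a tRNA-binding factor apart from eIF2, was at 91.0 ± 2.78 and 87.0 ± 0.896 CPM (SD, n = 3 per group) and was not called.

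Of the 5 subunits of eIF2B, only EIF2B4 passed. It was at 40.5, 42.2 and 39.8 CPM in the controls and at 44.1, 43.9 and 44.8 CPM after knockdown (log2 change 0.115, limma adjusted p = 0.0447). The EIF2B4 call ended without control replicate 1 (0.107), control replicate 3 (0.140), knockdown replicate 1 (0.0807), knockdown replicate 2 (0.0666) or knockdown replicate 3 (0.116). EIF2B1, EIF2B2, EIF2B3 and the catalytic EIF2B5 had log2 changes of 0.09, -0.05, -0.07 and 0.08, and EIF2B5 passed under median centring (0.0461) and without knockdown replicate 2 (0.0234).

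None of the 3 kinases of eIF2 alpha considered here passed. EIF2AK1, which senses heme and mitochondrial stress, was at 164, 167 and 167 CPM and at 171, 175 and 174 CPM, which did not overlap (limma adjusted p = 0.10). EIF2AK3, the sensor of the endoplasmic reticulum known as PERK, was at 67.9, 70.7 and 68.1 CPM and at 69.2, 64.9 and 62.0 CPM (adjusted p = 0.142, and 0.0429 without knockdown replicate 1, its highest knockdown library). EIF2AK4, the amino acid sensor GCN2, was at 45.7, 47.4 and 46.7 CPM and at 42.9, 43.8 and 42.9 CPM. Its groups did not overlap and its adjusted p was 0.0544, which fell to 0.0495 when genes under 5 CPM were left out and to 0.0468 without the trend.

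Among the 10 remaining initiation factors 1 rose and 1 fell (20% called, beside the same 52.1%). EIF1AX, which with EIF1 opens the small subunit for scanning, was at 434, 432 and 424 CPM in the controls and at 489, 475 and 482 CPM after knockdown. The gap was wide next to the spread (log2 change 0.165, SE 0.026, limma adjusted p = 2.35e-06), and the call was made in all 14 alternatives. EIF1 itself, the gatekeeper of start codon choice, was at 320, 338 and 318 CPM and at 326, 327 and 325 CPM, and its close relative EIF1B at 91.1 ± 1.24 and 88.2 ± 3.5 CPM (SD, n = 3 per group). Neither passed, and the small EIF1 change turned from 0.005 to -0.017 under quantile normalization. EIF1AD, a protein with an eIF1A domain, was not called (31.2 ± 1.49 and 34.2 ± 1.82 CPM, SD, n = 3 per group, limma adjusted p = 0.0611) but passed in 5 of 14 alternatives, without control replicate 2 (0.0352) and knockdown replicate 3 (0.0442) among them.

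EIF6, which keeps the large subunit from joining too early, was at 231, 227 and 223 CPM and at 216, 220 and 208 CPM (log2 change -0.08, limma adjusted p = 0.0287). The EIF6 call ended without control replicate 1 (0.120), knockdown replicate 1 (0.0540) or knockdown replicate 3 (0.169), under median centring (0.0619) and quantile normalization (0.0545), and without the trend (0.142). EIF5, the GTPase activator of eIF2, was at 397, 410 and 391 CPM and at 388, 388 and 386 CPM, and EIF5B, which joins the subunits, at 263 ± 11.9 and 267 ± 1.88 CPM (SD, n = 3 per group). Neither was called. EIF5A, the hypusine-bearing factor that relieves stalled ribosomes, was at 739, 720 and 718 CPM and at 705, 706 and 687 CPM, without overlap but with a limma adjusted p of 0.0787. Its paralog EIF5A2 was at 19.7 ± 1.79 and 18.7 ± 1.07 CPM (SD, n = 3 per group) and did not pass. Per kb of transcript the control levels of EIF5A and EIF5A2 were 895 ± 14.8 and 3.52 ± 0.320 CPM (SD, n = 3). The annotated transcripts used were of 0.811 and 5.59 kb, so part of this gap too comes from the lengths. EIF5AL1, a gene copy very similar to EIF5A whose reads may be shared with it, was at 12.8, 13.0 and 13.4 CPM and at 10.4, 10.1 and 13.7 CPM. It overlapped only through knockdown replicate 3, and its adjusted p of 0.0833 became 0.00488 without that library.

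Other genes of translation, in a list of 61, had log2 changes from -1.18 to 0.60, beside -0.32 to 0.28 among the factors themselves. Of the 59 that were tested, 16 rose and 13 fell (49.2%, beside 52.1% of all tested genes), with a median log2 change of -0.001. GSPT2 was not matched to the table, and FAM86A is an older symbol of EEF2KMT, which is counted among the factors above. At least 1.2-fold changes were seen for 9 of the 59 (15.3%). PABPC4, a cytoplasmic poly(A)-binding protein, was at 249, 257 and 246 CPM in the controls and at 116, 107 and 106 CPM after knockdown, which was 0.439 times the control. No member of the EIF and EEF set changed as much (log2 change -1.18, SE 0.034, limma adjusted p = 9.39e-26). The main poly(A)-binding protein PABPC1 was at 1348, 1379 and 1349 CPM and at 1392, 1343 and 1367 CPM, which overlapped, and did not pass (adjusted p = 0.783, and 0.00425 under quantile normalization).

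By role, 6 of 12 poly(A) and cap partners rose and 3 fell (50 and 25%), beside 25.7 and 26.5% of all tested genes. One of the falls, NCBP1 (log2 change -0.11, limma adjusted p = 0.0339), overlapped between groups. The NCBP1 call ended without control replicate 2 (0.367), knockdown replicate 1 (0.0611) or knockdown replicate 3 (0.106), under median centring (0.0617) and without the trend (0.203). PDCD4, which blocks the eIF4A helicase, rose from 43.8, 42.0 and 40.0 CPM to 68.3, 61.3 and 62.6 CPM (log2 change 0.60, limma adjusted p = 5.98e-13). CTIF, which serves the nuclear cap-binding complex, rose from 18.7, 20.7 and 21.7 CPM to 27.1, 26.1 and 27.9 CPM (log2 change 0.40, adjusted p = 3.28e-06). Neither overlapped between groups. LARP1, the protein that binds the tract shown above, rose from 429 ± 6.98 to 478 ± 5.46 CPM (SD, n = 3 per group, limma adjusted p = 5.12e-06), and the helicase DDX3X from 837 ± 7.54 to 889 ± 16.9 CPM (limma adjusted p = 0.00460, and 0.0894 without the trend).

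Of 11 kinases, phosphatase adaptors and regulators, 6 rose and 1 fell (54.5 and 9.09%, beside 25.7 and 26.5% of all tested genes), and 3 of these 7 calls were fragile. The rise of MTOR (limma adjusted p = 0.0401) overlapped between groups and ended without control replicate 1 (0.103), control replicate 3 (0.0880), knockdown replicate 1 (0.0821) or knockdown replicate 2 (0.310), and without the trend (0.178). The rise of GCN1, a partner of EIF2AK4 (0.0148), ended without control replicate 2 (0.0507), control replicate 3 (0.0515) or knockdown replicate 2 (0.187), and without the trend (0.153). The fall of the kinase RPS6KB2 (0.00908) ended without control replicate 1 (0.0673), under quantile normalization (0.0554) and without the trend (0.0848). PPP1R15A, the stress-induced phosphatase subunit that reverses phosphorylation of eIF2 alpha, was at 57.7, 54.0 and 59.5 CPM and at 80.4, 78.4 and 79.8 CPM (log2 change 0.47, limma adjusted p = 9.09e-12). MKNK2, a kinase that phosphorylates EIF4E, was at 64.7, 59.2 and 61.5 CPM and at 87.4, 81.7 and 79.5 CPM (log2 change 0.42, adjusted p = 2.76e-10). In both genes all knockdown libraries stood well above the controls. Of 6 start-site and reinitiation helpers 3 rose and 1 fell (50 and 16.7%), with BZW1, a mimic of EIF5, at 320 ± 7.77 and 349 ± 6.91 CPM (SD, n = 3 per group, limma adjusted p = 3.48e-04). Of these calls, the rise of DENR ended without control replicate 3 (0.0983) and without the trend (0.101), and the fall of MCTS1 without control replicate 1 (0.0522).

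Of 12 genes of the list that modify the factors none rose and 3 fell, a share of 25% near the 26.5% of all tested genes that fell. EEF2KMT, a modifier counted in the elongation group, also fell and is not among them. DHPS, which makes the hypusine of EIF5A, fell from 49.2, 49.3 and 51.4 CPM to 39.4, 42.1 and 39.6 CPM (log2 change -0.30, limma adjusted p = 1.92e-06). DPH6, of the pathway for the diphthamide of EEF2, fell from 9.53 ± 1.31 to 6.44 ± 0.509 CPM (SD, n = 3 per group, log2 change -0.50, limma adjusted p = 8.93e-05). Of 11 mitochondrial factors none rose and 4 fell (36.4%, beside 26.5% of all tested genes), and the call of GUF1, one of the 4, ended without the trend (adjusted p = 0.0694). GFM2, which recycles mitochondrial ribosomes, went from 63.8, 63.0 and 56.8 CPM to 34.8, 33.2 and 34.7 CPM, without overlap (log2 change -0.82, adjusted p = 3.00e-16). Of 5 release and recycling genes 1 rose and 1 fell, the fall being that of ABCE1, whose call ended without control replicate 2 (0.0561), without knockdown replicate 1 (0.0762) and without the trend (0.0984), and neither of 2 selenocysteine genes passed.

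**Figure D5:**
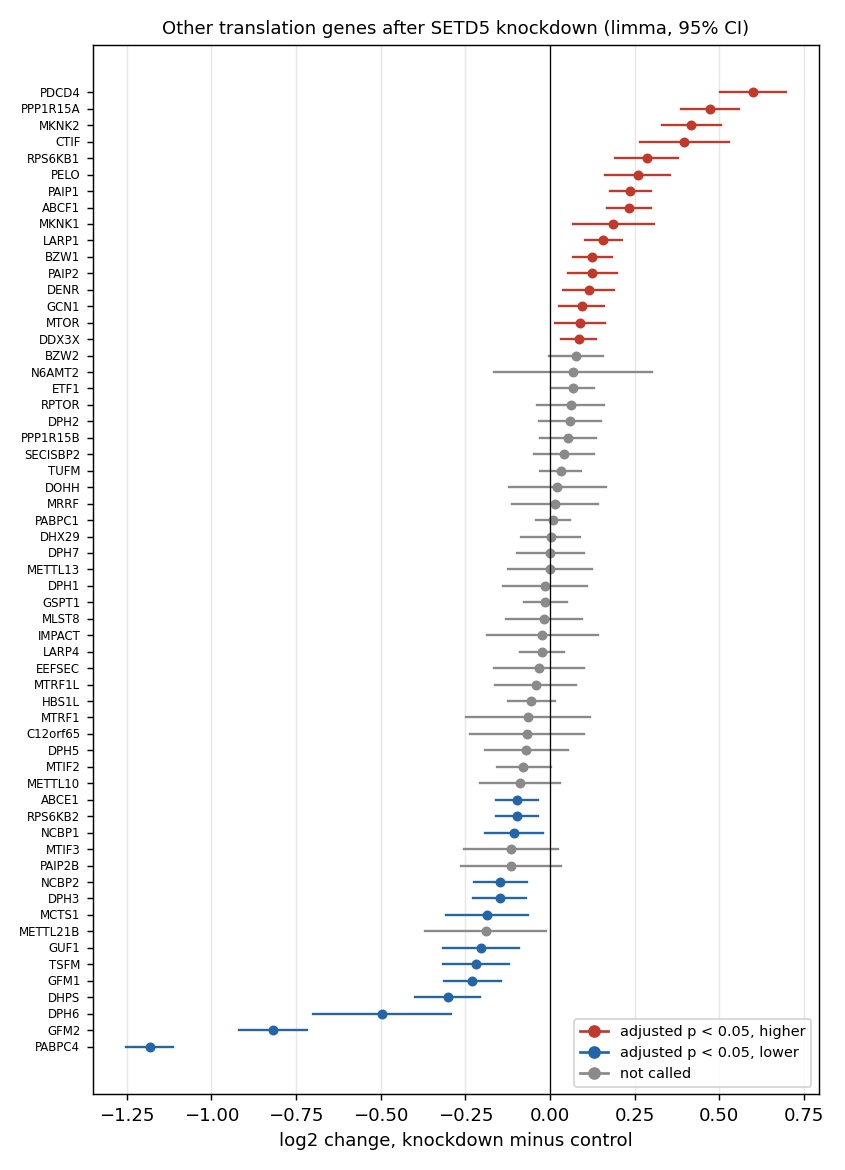
Log2 change (horizontal axis, knockdown minus control, limma) of the 59 other translation genes tested, sorted by size, with points for the estimate and lines for the 95% confidence interval; red is higher, blue lower and grey not called. The axis runs from PABPC4 at -1.18 to PDCD4 at 0.60, wider than the span of the 57 factor genes.

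An earlier analysis of these data had singled out the word GCACCT in 3′ UTRs, so it was counted here on the transcript strand of GENCODE 29. It was present in 13 of 54 members with a 3′ UTR (24.1%), against 3128 of 11424 tested genes (27.4%). Of the 13, 3 rose (EEF2, EIF4EBP1 and EIF4H), 4 fell (EEF2KMT, EIF3B, EIF3J and EIF4EBP2) and 6 did not pass (23.1% higher and 30.8% lower). Of the 3128 tested genes with the word 24.3% rose and 34.4% fell, against 28.0 and 24.5% of the 8296 without it. Because the word was picked from these same data, this split is a description and no independent support for it. The length of the 3′ UTRs was not taken into account. Only that of the chosen transcript was searched, and some were short, such as EIF4B (57 bases), EIF5A (58) and PPP1R15A (84). A gene counted without the word lacks it in that stretch only. In the list of other translation genes a 3′ UTR was searched for 55. Of the 15 with the word, 3 rose and 4 fell, and of the 40 without it, 13 rose and 8 fell. Among the 8 with the largest called changes, PABPC4, GFM2, DPH6 and CTIF hold 1 copy each. PDCD4, PPP1R15A and MKNK2 hold none in the stretch searched, and no 3′ UTR of DHPS was searched.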

How the data were processed

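The file deposited by the authors lists log2 values of 14200 genes for the 6 libraries, and its name calls them normalized CPM. All 6 columns were used. In each library, 2 to the power of the value minus 1 fell on whole multiples of the worth of 1 read (100% of values within 0.01 read), so the deposited values are log2(CPM + 1) of whole reads. Per the submitters' processing notes, STAR 2.5.1 and R 3.3.0 were used, with hg19 and mm10 named as builds. Per the labels' protocols, the kit keeps strand. Not given in the sources used here are the counting, its annotation and its use of strand, the scaling, and which genes were filtered out.

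Genes that averaged 1 CPM or more were tested, which left out 1335 and kept 12865. Limma 3.58.1 (R 4.3.3) was run on the deposited values as a two-sided test, with lmFit and with eBayes set to a mean-variance trend, with the group as its only term and Benjamini-Hochberg adjustment over all 12865 genes. Fold changes on the log2(CPM + 1) scale understate changes of low genes. An exact permutation test of 3 against 3 libraries cannot go below p = 0.1. Between libraries of a group a chi-square statistic per gene was 1.26 to 2.15, where sampling alone gives a value near 1. Each library was counted as a replicate, though this statistic cannot tell separate cultures from separate libraries of the same culture. The script was tested on simulated data.

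The 57 factor genes were read by symbol. The members, the list of other translation genes, the marker lists and the naming rule were chosen with earlier results of these data known. In each group the rule takes up to 6 called members with the largest change, 3 more at most that stood highest in CPM, and the subunits and paralogs set beside each other. From the other translation genes it takes 8 called genes and the 4 at the highest level. Lengths, exon overlaps and 3′ UTRs come from the GENCODE 29 transcript with the longest coding sequence, and transcript starts from RefSeq (GRCh38.p14). Alternatives were a pseudocount of 0.1, no filter, a filter at 5 CPM, median centring, quantile normalization, no trend, voom on the recovered reads, each library left out, and a replicate block.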

Additional observations from a re-analysis of the deposited data

How the results depend on the processing

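The count of factor genes called (24, with 14 higher and 10 lower) ranged from 22 to 25 under every alternative that kept all libraries except the fit without the mean-variance trend, which called 15, with 8 higher and 7 lower. Leaving out 1 library each gave 19 to 23 calls, 10 to 15 higher and 8 to 9 lower. Among the other translation genes 21 to 30 were called, against 29. EIF3I, EIF3E, EIF3L, EIF3D, EIF4B, EIF4A2, EIF4A3, EIF4G3, EIF4EBP2, EIF1AX and EIF2D passed in all 14 alternatives. EIF1 turned to -0.017 under quantile normalization. Some uncalled genes with changes near 0 changed sign when a library was left out. Over those fits the log2 change of EEF1E1 ran from -0.142 to 0.035, of EIF3K from -0.029 to 0.052, of EIF3M from -0.008 to 0.048, of EIF4E from -0.020 to 0.044, of EIF4E2 from -0.077 to 0.001, of EIF4G1 from -0.001 to 0.026, of EIF1 from -0.012 to 0.033, of EIF5B from -0.005 to 0.056 and of PABPC1 from -0.004 to 0.022. The cause of these differences was not tested. Fits that left out a library had fewer samples.

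With a replicate block 25 factor genes were called, 15 higher and 10 lower, the addition being EIF1AD (adjusted p = 0.0487). The labels share replicate numbers without saying that a number marks a culture or day. Deviations from the group means correlated at -0.011, 0.054 and 0.042 between same-numbered libraries, and not every library correlated best with its own number. The numbers were therefore not taken to pair the libraries. The voom fit on recovered reads called 25 factor genes. Counting depth leaves EEF1A2 and EIF4E3, at mean levels of 1.19 and 2.49 CPM, with the widest intervals, and no weak change in them was detectable at this depth.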
